A study of Homo sapiens with 8 samples.

Results

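The 69 genes described here encode the classical axon guidance cues and their receptors: semaphorins of class 3 to 7, plexins and neuropilins, ephrins and EPH receptors, SLITs and ROBOs, and netrins with DCC, NEO1 and the UNC5 receptors. They were taken by gene symbol alone from the 19426 named genes of the array, with SLITRK genes left out. No measured value entered that rule, but the set was chosen with earlier results of these data known. All 69 passed the filter on dim signal that left 18732 genes for testing.

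The samples were NTera2/D1 cells, an established human embryonal carcinoma line that differentiates when given retinoic acid (RA). All cells carried a small interfering RNA, either siLacZ, aimed at a bacterial gene and used as the control, or siRNF20, aimed at RNF20, the E3 ligase that places ubiquitin on histone H2B. They were kept for 72 h with DMSO or with 10 µM RA, which made 4 groups (DMSO siLacZ, RA siLacZ, DMSO siRNF20 and RA siRNF20) of 2 arrays each, labelled GF117 and GF120, from biological duplicates per the labels. The line is a tumour line in culture, and the labels do not say what the GF numbers stand for or how the duplicates were separated, so that the spread between arrays may be partly technical.

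Axon guidance proteins steer growth cones and migrating cells by attraction or repulsion. Secreted class 3 semaphorins act through neuropilins paired with class A plexins, whereas the membrane-bound semaphorins of the other classes mostly bind plexins directly. SLITs signal through ROBO receptors, ephrins through EPH receptor tyrosine kinases in contacting cells, and netrins through DCC, NEO1 and UNC5 receptors. Many of the same proteins also pattern vessels, neural crest and the neural tube, so that their RNA is not restricted to neurons.

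Values are log2 intensities, and a gene's value on an array is the median over its array rows (probe sets) that were brighter than the median row. The 69 genes had 2029 rows, of which 1691 were used, with a median of 23 per gene and a range from 5 for PLXNB2 to 60. The GF117 RA siLacZ array stood apart from the rest: its gene values correlated at 0.135 to 0.239 with the 7 other arrays, which correlated at 0.908 to 0.975 among themselves. It was left out, so that RA siLacZ is represented by the GF120 array alone, which is assumed to vary like the other groups. Differences with all 8 arrays are given after the counts below. On the 7 arrays used, RNF20 itself stood at 8.24, 8.09 and 8.10 in siLacZ cells and between 5.89 and 6.48 in siRNF20 cells. Those values did not overlap, but on the left-out array RNF20 read 6.08, within the siRNF20 range. The RNF20 differences were -1.94 (SE 0.23) in DMSO and -2.02 (SE 0.29) in RA. Neither passed the adjusted threshold (limma, adjusted p = 0.237 and 0.110).

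RA changed a limited set of guidance genes in each siRNA background. In siLacZ cells 12 of the 69 genes rose and 4 fell (limma, adjusted p under 0.05), or 23.2% of them, against 3.91% of all genes tested (1.88% higher and 2.03% lower). In siRNF20 cells 12 rose and 3 fell, or 21.7%, against 3.92% of all genes (1.79% higher and 2.13% lower). The median difference over the 69 genes was 0.05 in siLacZ cells and 0.04 in siRNF20 cells beside -0.05 and -0.03 over all genes. At an unadjusted p under 0.05, 26 and 28 of the 69 genes differed, against 16.4% and 15.3% of all genes.

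Of the calls 13 were shared, all with the same sign. That is 81.25% of the calls in siLacZ cells and 86.7% of those in siRNF20 cells. Over all genes 438 were called in both backgrounds, of 733 called in siLacZ cells and 734 in siRNF20 cells. PLXNB2, EPHA4 and SEMA6A passed in siLacZ cells and not in siRNF20 cells, and SLIT1 and SEMA7A the other way round; for none of these 5 genes did the difference between the responses pass. The comparisons rest on different arrays, and over the 69 genes their RA differences correlated at Pearson r = 0.967 and Spearman rho = 0.864, as a description. Over the 51 genes called in neither background r was 0.653. All 3 RA arrays lay above all 4 DMSO arrays for 15 of the 69 genes, against 8.07% of all genes, and below them for 15, against 12.6%.

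With all 8 arrays none of the 69 genes, and 0.0% of all genes, was called in either RA comparison. At an unadjusted p under 0.05, 10 of the 69 genes differed in siLacZ cells (8.05% of all genes) and 12 in siRNF20 cells (2.69% of all genes). In siLacZ cells the 8-array differences of the genes that had risen were 2.82 (SEMA3C), 3.05 (ROBO2), 2.62 (PLXNA2), 1.75 (SEMA3E), 1.65 (SEMA4G), 1.30 (EPHB3), 0.85 (NRP1), 0.66 (SEMA3D), 0.57 (NRP2), 0.51 (EFNB2), 0.39 (SEMA6D) and -0.87 (PLXNB2), each smaller than with 7 arrays. Of those that had fallen, EPHA1 gave -2.45, and SEMA4A (-1.56), EPHA4 (-1.82) and SEMA6A (-2.93) gave larger decreases than with 7 arrays. Over all genes the median siLacZ difference also moved down, from -0.05 with 7 arrays to -0.49 with 8. With 8 arrays 6274 of 18747 genes were above 0, so the larger decreases are not particular to these genes. The siRNF20 comparison, which does not hold the added array, moved most for SEMA3D among the genes called there, from 1.42 to 1.58, through the row filter.

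**Figure D1:**
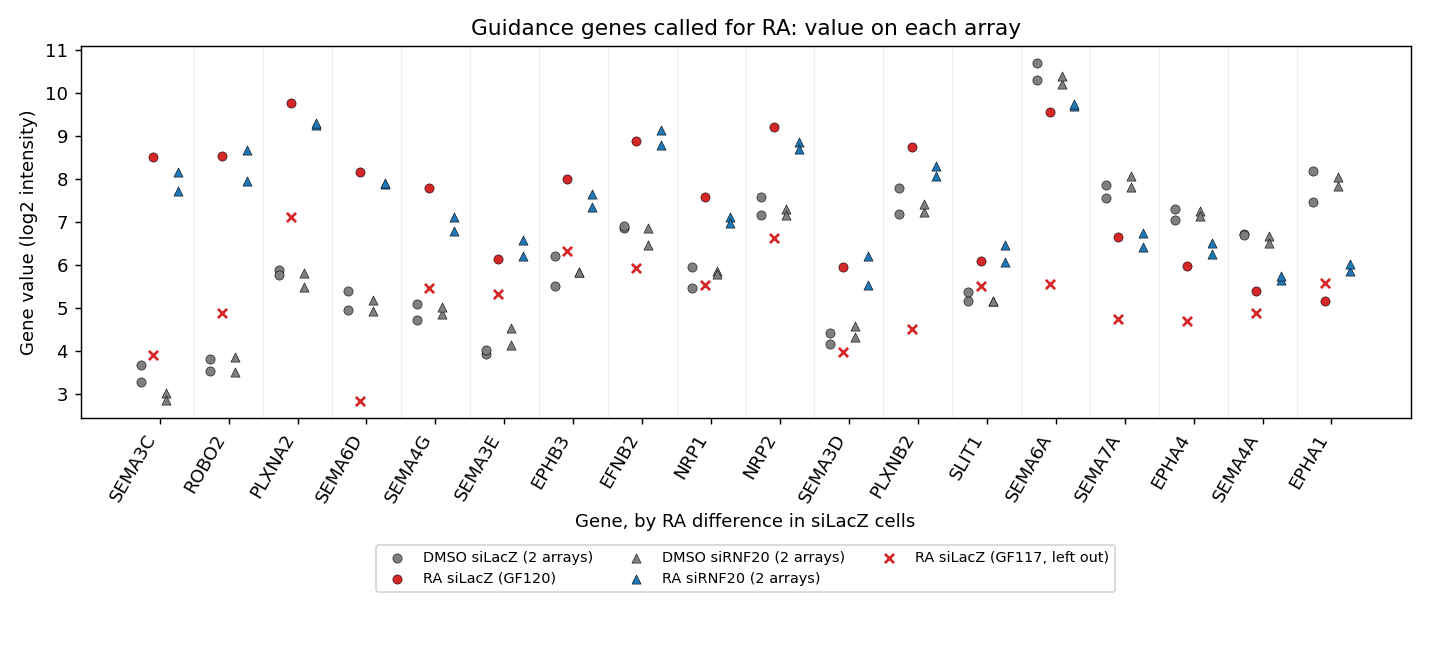
Log2 intensity (vertical axis) of each of the 18 guidance genes called for RA in at least 1 siRNA background (horizontal axis, ordered by RA difference in siLacZ cells). Each point is 1 array, with colour and shape marking the group, and crosses mark the GF117 RA siLacZ array that was left out. SEMA3C lies at 2.87 to 3.69 on the 4 DMSO arrays and at 7.73 to 8.50 on the 3 RA arrays, whereas EPHA1 drops from between 7.46 and 8.19 to between 5.17 and 6.03.

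**Figure D2:**
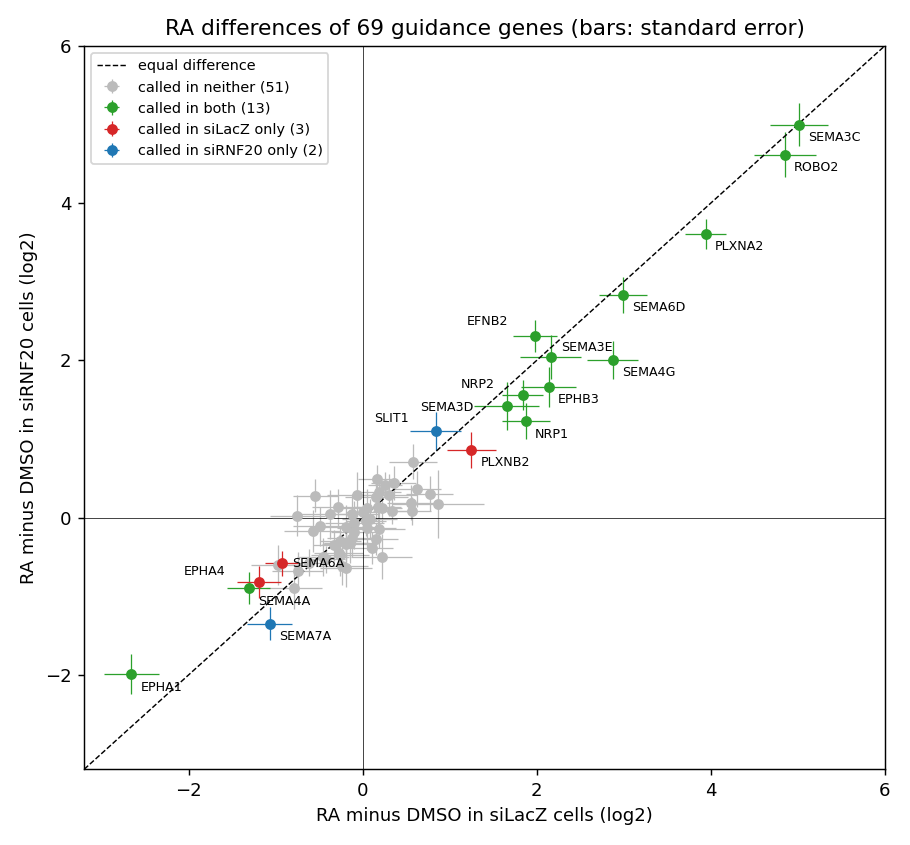
RA minus DMSO difference (log2) in siLacZ cells (horizontal axis) against the same difference in siRNF20 cells (vertical axis) for the 69 guidance genes, with bars of 1 standard error, a dashed line of equal difference and colour marking the 13 genes called in both backgrounds, the 3 and 2 called in 1 of them and the 51 in neither. The points follow the line from EPHA1 at -2.66 and -1.99 to SEMA3C at 5.02 and 5.0, with most genes near 0.

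Part of the embryonal carcinoma and neural markers moved with RA in the same arrays. Of 8 pluripotency markers 6 fell in each background, against 2.03% and 2.13% of all genes. SOX2 passed in siLacZ cells alone, DPPA4 in siRNF20 cells alone and LIN28A in neither. The summed intensity of the 8 was 9527 to 10244 on the DMSO arrays, 4849 on the RA siLacZ array and 7366 and 6777 on the RA siRNF20 arrays. This linear sum is weighted to bright markers, among them LIN28A and SOX2, which did not fall in siRNF20 cells (0.27 and 0.22). POU5F1 differed by -1.83 in siLacZ and -2.46 in siRNF20 cells. Of 6 neural progenitor markers 3 rose in each background, against 1.88% and 1.79% of all genes. The transcription factor PAX6 (differences of 3.54 and 3.08) and CDH2 rose in both, MSI1 in siLacZ cells and NES in siRNF20 cells. VIM gave -0.86 and -0.006 and was not called. Summed intensities were 1286 to 1505 in DMSO and 2214 to 2343 in RA. Of 12 neuron markers 2 rose in siLacZ cells (DCX and ISL1) and 3 in siRNF20 cells (MAP2 as well), with sums of 871 to 1317 in DMSO and 1373 to 1667 in RA. Among the defining neuron markers STMN2, which encodes a tubulin-binding protein of growing axons, ranged from 4.17 to 5.63 and was not called. SYP (-0.61 and -0.77) and ELAVL3 (-0.58 and -0.43) had negative differences in both backgrounds, also not called.

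Markers of other lineages gave few calls. Of 8 endothelial markers CDH5 alone rose (2.87 and 2.53), PECAM1 stayed between 4.29 and 5.38, and the sum was 577 to 719 in DMSO and 644 to 793 in RA. Of 7 mesenchymal markers COL1A1 rose and THY1 fell in siLacZ cells and THY1 fell in siRNF20 cells, with sums of 554 to 678 in DMSO and 531 to 559 in RA. None of 4 glial markers was called in either background, and 0 of them was below an unadjusted p of 0.05 (limma). The part of such cell types in the guidance results was not tested, and in a bulk sample fewer cells of a type and less RNA per cell cannot be told apart.

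The 3 largest changes were those of SEMA3C, a secreted semaphorin that signals through neuropilins and class A plexins, ROBO2, a receptor for SLITs, and PLXNA2, a class A plexin that serves as signalling co-receptor for class 3 semaphorins and as a receptor for SEMA6A. SEMA3C stood at 3.29 and 3.69 in DMSO siLacZ cells (GF117, then GF120, here and below), at 8.50 on the RA siLacZ array, at 3.03 and 2.87 in DMSO siRNF20 cells and at 8.17 and 7.73 in RA siRNF20 cells. The RA arrays were far above the DMSO arrays in both backgrounds, with no overlap. The difference was 5.02 (SE 0.34, 32.4-fold, limma adjusted p = 0.000135) in siLacZ cells and 5.0 (SE 0.27, 31.9-fold, adjusted p = 3.14e-05) in siRNF20 cells. The responses differed by -0.02, with a 95% interval from -1.0 to 0.96.

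ROBO2 measured 3.83 and 3.55 in DMSO siLacZ cells, 8.55 with RA, 3.52 and 3.87 in DMSO siRNF20 cells and 8.67 and 7.95 with RA. Every RA array again lay above every DMSO array. ROBO2 rose by 4.85 (SE 0.36, 28.9-fold, limma adjusted p = 0.000153) in siLacZ cells and by 4.62 (SE 0.29, 24.5-fold, adjusted p = 5.01e-05) in siRNF20 cells, a difference between responses of -0.23 (95% interval -1.27 to 0.80). PLXNA2 went from 5.90 and 5.76 to 9.77 in siLacZ cells and from 5.50 and 5.82 to 9.25 and 9.30 in siRNF20 cells. Its groups were equally separate, with differences of 3.94 (SE 0.24, 15.4-fold, limma adjusted p = 9.78e-05) and 3.61 (SE 0.19, 12.2-fold, adjusted p = 3.14e-05) and a difference between responses of -0.33 (95% interval -1.02 to 0.36).

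The size of the first 2 of these folds depends on how dim signal in DMSO is treated. In DMSO cells 4 of the 22 SEMA3C rows used and 10 of the 31 ROBO2 rows were above the dim threshold of 3.97, and both genes lay below the array median on all 4 DMSO arrays. With an offset of 16 added before log2 the differences were 3.78 and 3.45 for SEMA3C and 3.75 and 3.42 for ROBO2, all still called. The rows used were kept by their mean over all 7 arrays, RA arrays included, so that many of these rows entered through the RA group. With no filter on rows the differences were 5.17 and 5.05 for SEMA3C, 4.94 and 4.54 for ROBO2 and 3.72 and 3.55 for PLXNA2, all called, and of all their rows 25 and 27 of 27 (SEMA3C), 36 and 36 of 37 (ROBO2) and all 43 (PLXNA2) were higher with RA. On the left-out array SEMA3C read 3.90, ROBO2 4.90 and PLXNA2 7.12, and with all 8 arrays the siLacZ differences were 2.82, 3.05 and 2.62, none called.

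Genes whose pattern over the 7 arrays was most like that of ROBO2, among 637 genes with a range of at least 2, were TSHZ1 (Pearson r = 0.998), SCUBE3 (0.998), LOC100129455 (0.996), HOXA3 (0.995) and IFI16 (0.995). Most like SEMA3C were CNKSR3 (0.998), HOXD3 (0.997), CYP26A1, the RA-degrading enzyme (0.996), PKNOX2 (0.996) and ENO3 (0.996). These are descriptions over 7 arrays in which the RA contrast dominates, and many genes reach such values.

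**Figure D3:**
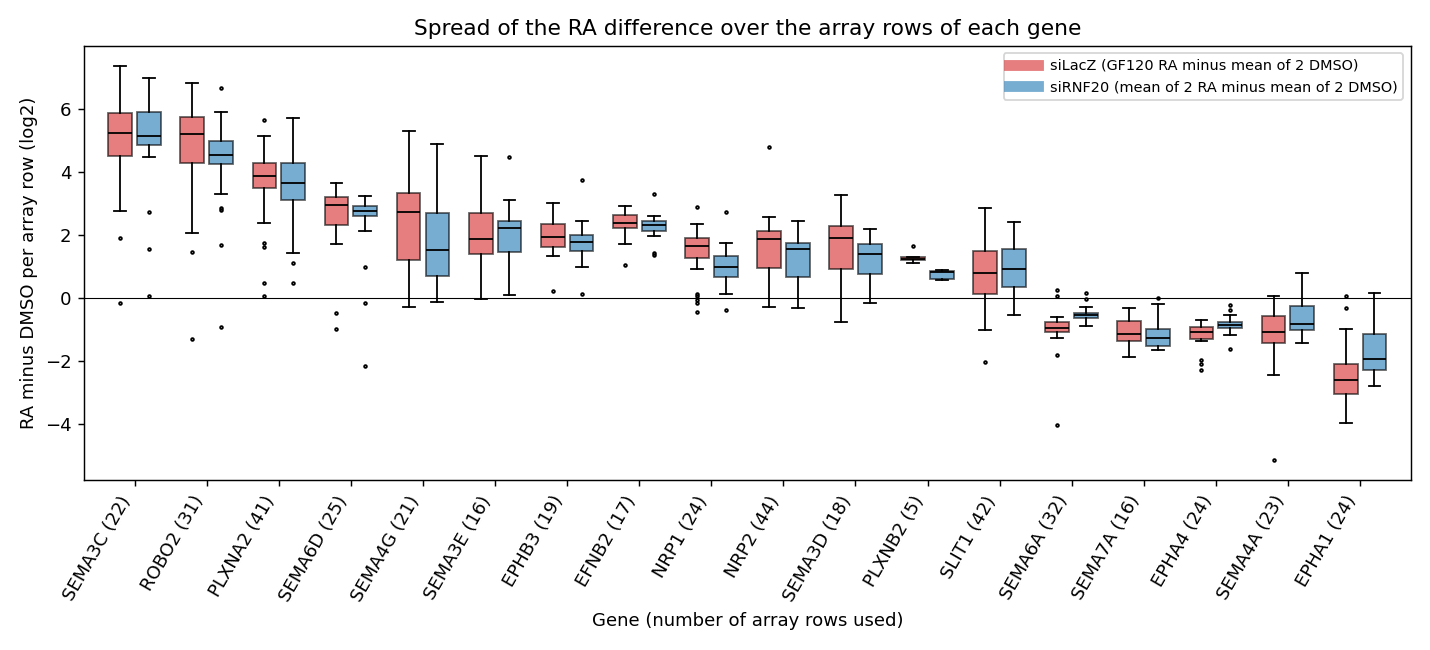
RA minus DMSO difference of each array row used (vertical axis, log2), shown per gene as boxes for siLacZ and siRNF20 cells (horizontal axis, genes called in at least 1 background, with the number of rows); rows were kept by their mean over the 7 arrays. All 19 EPHB3 rows and all 17 EFNB2 rows lie above 0 in both backgrounds, and 23 of 24 EPHA1 rows lie below it.

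Promoter sequences are shown for these 3 genes, because they share the largest RA changes; they run from 250 bases before to 50 after an annotated start, from RefSeq on GRCh38.p14. RA receptors bind pairs of a short core motif, searched here as AGGTCA or GGTTCA or AGTTCA on both strands; capitals mark a match (the reverse complement of AGTTCA reads TGAACT). SEMA3C has a start whose window lies at chr7:80922340-80922639 (minus strand, GC 36.0%, 2 CpG) and holds AGTTCA from position 32 after the start:
SEMA3C-1: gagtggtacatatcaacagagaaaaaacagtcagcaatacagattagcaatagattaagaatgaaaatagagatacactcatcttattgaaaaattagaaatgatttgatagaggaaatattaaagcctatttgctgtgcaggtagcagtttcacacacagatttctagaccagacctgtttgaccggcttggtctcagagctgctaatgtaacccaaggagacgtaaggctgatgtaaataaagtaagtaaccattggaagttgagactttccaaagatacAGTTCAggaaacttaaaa
A further SEMA3C start lies in the CpG-rich window chr7:80919002-80919301 (minus strand, GC 75.7%, 46 CpG), which holds none of the motifs:
SEMA3C-2: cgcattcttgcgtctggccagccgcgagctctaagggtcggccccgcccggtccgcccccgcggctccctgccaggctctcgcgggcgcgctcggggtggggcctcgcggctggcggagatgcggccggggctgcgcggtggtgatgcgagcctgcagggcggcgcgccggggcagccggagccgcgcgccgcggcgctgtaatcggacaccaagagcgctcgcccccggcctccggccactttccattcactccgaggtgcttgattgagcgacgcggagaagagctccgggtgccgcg
ROBO2 has a window at chr3:76310630-76310929 (plus strand, GC 46.7%, 7 CpG) with TGAACT beginning at position -137:
ROBO2-1: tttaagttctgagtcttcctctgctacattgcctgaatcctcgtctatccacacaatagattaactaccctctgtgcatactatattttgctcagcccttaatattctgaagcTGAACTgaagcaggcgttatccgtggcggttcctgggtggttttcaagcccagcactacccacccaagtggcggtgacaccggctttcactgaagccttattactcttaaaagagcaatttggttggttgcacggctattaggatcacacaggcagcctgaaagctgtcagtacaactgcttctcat
The other ROBO2 window, chr3:77039849-77040148 (plus strand, GC 72.3%, 31 CpG), holds none:
ROBO2-2: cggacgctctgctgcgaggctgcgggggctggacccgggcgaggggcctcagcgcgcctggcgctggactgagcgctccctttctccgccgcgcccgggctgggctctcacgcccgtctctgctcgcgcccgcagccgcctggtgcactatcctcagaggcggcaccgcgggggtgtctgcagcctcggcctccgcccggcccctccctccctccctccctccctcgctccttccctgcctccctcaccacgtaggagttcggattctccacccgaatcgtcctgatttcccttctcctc
PLXNA2 has a window at chr1:208244335-208244634 (minus strand, GC 70.3%, 29 CpG), also without a match:
PLXNA2-1: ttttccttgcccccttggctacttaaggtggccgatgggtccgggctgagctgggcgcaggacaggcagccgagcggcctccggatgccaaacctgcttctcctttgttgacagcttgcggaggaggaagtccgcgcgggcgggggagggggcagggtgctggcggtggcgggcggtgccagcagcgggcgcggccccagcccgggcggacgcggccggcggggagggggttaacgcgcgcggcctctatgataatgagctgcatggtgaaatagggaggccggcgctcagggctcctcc

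Both SEMA3C and ROBO2 thus have an annotated start with few CpG and another that is CpG-rich, and the array values used here do not tell which start gave the signal. Promoters were listed for 59 of the 69 genes (91 windows) and for 12 of the 13 genes that rose in at least 1 background (18 windows). AGGTCA stood in 13.8% of all 35116 promoters of the same length, in 10.99% of the guidance windows and in 2 of the 18 windows of the risers, those of SEMA3E and SEMA4G. Any of the 3 motifs stood in 28.9% of all promoters, in 25.3% of the guidance windows and in 8 of those 18. Direct repeats of the motifs spaced by 1, 2 or 5 bases stood in 0.0570%, 0.0114% and 0.0626% of all promoters and in 0 of the 91 guidance windows. A match is a description of letters, and its absence says only that those letters are not in the window.

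Among the 7 class 3 semaphorins, the secreted ligands, SEMA3C, SEMA3D and SEMA3E rose in both backgrounds and none fell; the family median was 0.55 in siLacZ cells and 0.19 in siRNF20 cells. SEMA3E, which differs from its relatives in binding PLXND1 directly, measured 3.93 and 4.03 in DMSO siLacZ cells, 6.14 with RA, 4.55 and 4.14 in DMSO siRNF20 cells and 6.58 and 6.20 with RA. The RA arrays were all higher. Its differences were 2.16 (SE 0.35, 4.47-fold, limma adjusted p = 0.0087) and 2.04 (SE 0.28, 4.13-fold, adjusted p = 0.00335), and the siLacZ call was lost without the DMSO siLacZ array GF120 (1.92, adjusted p = 0.0903) and with no filter on dim rows (1.90, adjusted p = 0.0618). SEMA3E was dim in DMSO too: with the offset of 16 its differences were 1.18 and 1.47.

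SEMA3D stood at 4.43 and 4.16 in DMSO siLacZ cells, 5.95 with RA, 4.34 and 4.59 in DMSO siRNF20 cells and 6.22 and 5.55 with RA. Groups did not overlap, but the calls, 1.65 (SE 0.38, 3.15-fold, limma adjusted p = 0.0442) and 1.42 (SE 0.31, 2.68-fold, adjusted p = 0.0360), were near the threshold. The siLacZ call of SEMA3D was lost without any of the 4 DMSO arrays, with values of 1.44 to 1.79 and adjusted p of 0.0579 to 0.192. The siRNF20 call was lost without any of the 4 DMSO arrays or the RA siRNF20 array GF117, with values of 1.08 to 1.53 and adjusted p of 0.0737 to 0.297. Both SEMA3D calls were also lost with no filter on dim rows (1.80 and 1.20, adjusted p = 0.110 and 0.186), the siLacZ call with the offset of 16 (1.02, adjusted p = 0.0705) and without the trend (adjusted p = 0.0507), and the siRNF20 call with the stricter filter (1.09, adjusted p = 0.0541) and the mean of rows (1.22, adjusted p = 0.0535). PLXND1, the receptor of SEMA3E, differed by -0.33 and -0.35 and was not called.

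The other 4 secreted semaphorins, SEMA3A, SEMA3B, SEMA3F and SEMA3G, were not called, with differences between -0.26 (SEMA3F) and 0.55 (SEMA3B) in siLacZ cells and between -0.62 (SEMA3A) and 0.19 (SEMA3B) in siRNF20 cells. SEMA3A, the classic repellent of sensory axons, read 8.39 and 7.93 in DMSO siLacZ cells, 7.92 with RA, 8.55 and 8.09 in DMSO siRNF20 cells and 7.92 and 7.48 with RA. All 3 RA arrays were below the lowest DMSO array, by a small step in siLacZ cells, and neither difference passed (-0.24 and -0.62, limma adjusted p = 0.782 and 0.247).

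Of the 13 class 4 to 7 semaphorins, which are held in the membrane and serve as ligands and sometimes as receptors, 2 rose and 2 fell in each background (medians -0.10 and -0.19). SEMA6D, a transmembrane semaphorin that binds PLXNA1, measured 5.39 and 4.95 in DMSO siLacZ cells, 8.16 with RA, 5.20 and 4.93 in DMSO siRNF20 cells and 7.89 and 7.90 with RA. The RA arrays stood clear of the DMSO arrays. It rose by 2.99 (SE 0.28, 7.95-fold, limma adjusted p = 0.000487) and 2.83 (SE 0.23, 7.12-fold, adjusted p = 0.000177); with all 8 arrays the siLacZ difference was 0.39, since the left-out array read 2.84.

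SEMA4G, another transmembrane semaphorin, went from 5.09 and 4.73 to 7.78 in siLacZ cells and from 4.87 and 5.03 to 6.79 and 7.12 in siRNF20 cells. All RA arrays were higher, and the RA siLacZ array was the highest. The differences were 2.87 (SE 0.29, 7.32-fold, limma adjusted p = 0.000745) and 2.01 (SE 0.24, 4.02-fold, adjusted p = 0.00144). The response in siRNF20 cells was smaller by 0.87 on the log2 scale, a difference of -0.87 (SE 0.38, 95% interval -1.71 to -0.02), which was below an unadjusted p of 0.05 (0.0459) and did not pass over all genes (adjusted p = 0.999). The SEMA4G difference between responses rests on 1 RA siLacZ array and changed sign with all 8 arrays. SEMA4G overlaps MRPL43, which is also on the array, and whether their rows share signal was not tested.

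The semaphorins that fell were SEMA4A, SEMA6A and SEMA7A. SEMA4A, a transmembrane semaphorin with known roles in immune cells and retina, stood at 6.72 and 6.69 in DMSO siLacZ cells, 5.40 with RA, 6.68 and 6.52 in DMSO siRNF20 cells and 5.65 and 5.75 with RA. All RA arrays were lower. Its differences were -1.31 (SE 0.25, 2.48-fold lower, limma adjusted p = 0.0202) and -0.90 (SE 0.20, 1.86-fold lower, adjusted p = 0.0428). In siLacZ cells the SEMA4A call was lost without either DMSO siLacZ array (-1.30 and -1.32, adjusted p = 0.101 and 0.0831), and the siRNF20 call without any of the 6 arrays left out in turn (-0.98 to -0.82, adjusted p of 0.0807 to 0.329).

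SEMA6A, a transmembrane ligand of PLXNA2 and PLXNA4, read 10.70 and 10.29 in DMSO siLacZ cells, 9.56 with RA, 10.20 and 10.39 in DMSO siRNF20 cells and 9.69 and 9.74 with RA. The RA arrays were lower without overlap. It fell in siLacZ cells (-0.93, SE 0.19, 1.91-fold lower, limma adjusted p = 0.0280), a call lost without the DMSO siLacZ array GF117 (-0.73, adjusted p = 0.127), and its difference in siRNF20 cells did not pass (-0.58, SE 0.16, adjusted p = 0.0809). SEMA7A, which is held in the membrane by a GPI anchor, measured 7.87 and 7.57 in DMSO siLacZ cells, 6.65 with RA, 8.06 and 7.81 in DMSO siRNF20 cells and 6.75 and 6.43 with RA.

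SEMA7A was likewise lower on every RA array, and the difference of group means was below 0 in all 16 of its rows. It fell in siRNF20 cells (-1.35, SE 0.21, 2.55-fold lower, limma adjusted p = 0.00662; without the DMSO siRNF20 array GF117 -1.22, adjusted p = 0.0795) and just missed the threshold in siLacZ cells (-1.07, SE 0.26, adjusted p = 0.0551). The 8 semaphorins of these classes called in neither background, SEMA4B, SEMA4C, SEMA4D, SEMA4F, SEMA5A, SEMA5B, SEMA6B and SEMA6C, ranged from -0.97 (SEMA5A) to 0.22 (SEMA5B) in siLacZ cells and from -0.60 (SEMA5A) to 0.13 (SEMA5B) in siRNF20 cells.

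Among the 11 semaphorin receptors, 9 plexins and 2 neuropilins, 4 rose in siLacZ cells (PLXNA2, NRP1, NRP2 and PLXNB2) and 3 in siRNF20 cells (the same without PLXNB2), and none fell; the medians were 0.56 and 0.13. NRP1, the ligand-binding partner of class A plexins for SEMA3A and also a co-receptor for VEGF, measured 5.47 and 5.96 in DMSO siLacZ cells, 7.59 with RA, 5.85 and 5.80 in DMSO siRNF20 cells and 7.13 and 6.98 with RA. Its RA arrays were all higher, the siLacZ array most. NRP1 rose by 1.88 (SE 0.28, 3.68-fold, limma adjusted p = 0.00578) and 1.22 (SE 0.23, 2.34-fold, adjusted p = 0.0169). Without the filter on dim rows NRP1 was not called (1.27 and 0.72, adjusted p = 0.084 and 0.230), and the siRNF20 call was lost without the DMSO siRNF20 array GF117 or GF120 (1.25 and 1.20, adjusted p = 0.0979 and 0.102) or the RA siRNF20 array GF117 (1.15, adjusted p = 0.0668).

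NRP2, a neuropilin that binds SEMA3C and SEMA3F, went from 7.59 and 7.16 to 9.21 in siLacZ cells and from 7.29 and 7.16 to 8.87 and 8.71 in siRNF20 cells. There was no overlap. The rises were 1.84 (SE 0.24, 3.57-fold, limma adjusted p = 0.00264) and 1.56 (SE 0.20, 2.95-fold, adjusted p = 0.00204), and of all its rows 48 and 47 of 51 were higher. SEMA3C, NRP2 and PLXNA2, a ligand and receptor subunits it can use, therefore all rose in both backgrounds, and each was called under all 13 alternatives run on the 7 arrays.

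PLXNB2, a plexin that binds class 4 semaphorins, read 7.80 and 7.19 in DMSO siLacZ cells, 8.75 with RA, 7.25 and 7.42 in DMSO siRNF20 cells and 8.08 and 8.31 with RA. The RA arrays were higher in each background. It rose in siLacZ cells (1.25, SE 0.28, 2.38-fold, limma adjusted p = 0.0387), and its 0.86 (SE 0.23, adjusted p = 0.0752) in siRNF20 cells did not pass. The PLXNB2 value rests on 5 rows; the call was lost without the DMSO siRNF20 array GF117 or GF120 (1.25 and 1.25, adjusted p = 0.0579 and 0.0562) or the DMSO siLacZ array GF120 (0.95, adjusted p = 0.142), and with all 8 arrays the difference was -0.87 (adjusted p = 0.656). The 7 plexins called in neither background were PLXNA1, PLXNA3, PLXNA4, PLXNB1, PLXNB3, PLXNC1 and PLXND1, with differences from -0.57 (PLXNA4) to 0.58 (PLXNA3) in siLacZ cells.

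Of the 7 SLITs and ROBOs, ROBO2 rose in both backgrounds and the ligand SLIT1 in siRNF20 cells; none fell, and the medians were 0.33 and 0.09. SLIT1 stood at 5.17 and 5.37 in DMSO siLacZ cells, 6.11 with RA, 5.17 and 5.17 in DMSO siRNF20 cells and 6.06 and 6.47 with RA. All 3 RA arrays were higher. Its difference in siRNF20 cells was 1.10 (SE 0.24, 2.14-fold, limma adjusted p = 0.0381) and in siLacZ cells 0.84 (SE 0.30, adjusted p = 0.188). The SLIT1 call was lost without any of the 4 DMSO arrays (1.10 each, adjusted p of 0.0620 to 0.202) and without the RA siRNF20 array GF120 (0.89, adjusted p = 0.178).

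ROBO1, another SLIT receptor of commissural axons, read 8.27 and 8.05 in DMSO siLacZ cells, 8.49 with RA, 8.13 and 8.19 in DMSO siRNF20 cells and 8.34 and 8.16 with RA. Its groups overlapped in siRNF20 cells, and its differences of 0.33 and 0.09 did not pass. SLIT2, SLIT3, ROBO3, which lowers SLIT sensitivity of commissural axons, and ROBO4, the endothelial member, were not called either, with differences between -0.12 and 0.77 in siLacZ cells and between -0.50 and 0.30 in siRNF20 cells. ROBO2 was therefore the one of the 4 ROBO genes called.

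Of the 8 ephrins, the membrane-bound ligands of EPH receptors, EFNB2 rose in both backgrounds and the other 7 were not called (medians 0.16 and 0.27). EFNB2, a transmembrane ephrin and ligand of EPHB receptors, measured 6.87 and 6.91 in DMSO siLacZ cells, 8.87 with RA, 6.47 and 6.85 in DMSO siRNF20 cells and 8.80 and 9.15 with RA. The RA arrays did not overlap with the DMSO arrays, and the difference of group means was above 0 in all 17 rows. The differences were 1.98 (SE 0.25, 3.96-fold, limma adjusted p = 0.00227) and 2.31 (SE 0.21, 4.97-fold, adjusted p = 0.000332). EFNB2 was the one of the 13 shared calls with the larger value in siRNF20 cells, and its responses differed by 0.33 (95% interval -0.41 to 1.06).

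EFNA3, a GPI-anchored ligand of EPHA receptors, had the next largest differences of the ephrins. It read 6.55 and 6.10 in DMSO siLacZ cells, 5.53 with RA, 6.25 and 5.87 in DMSO siRNF20 cells and 5.36 and 4.97 with RA. All RA arrays were lower, but neither difference passed (-0.79, SE 0.33, limma adjusted p = 0.268; -0.90, SE 0.27, adjusted p = 0.115). EFNA1, EFNA2, EFNA4, EFNA5, EFNB1 and EFNB3 ranged from -0.26 to 0.30 in siLacZ cells and from -0.39 to 0.49 in siRNF20 cells.

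The 14 EPH receptors moved in both directions: EPHB3 rose and EPHA1 fell in both backgrounds, and EPHA4 fell in siLacZ cells (medians -0.19 and -0.20). EPHB3, a receptor for ephrin-B ligands, went from 6.22 and 5.51 to 8.01 in siLacZ cells and from 5.84 and 5.85 to 7.65 and 7.36 in siRNF20 cells. The groups were separate, and the difference of group means was above 0 in all 19 rows. EPHB3 rose by 2.14 (SE 0.32, 4.41-fold, limma adjusted p = 0.00562) and 1.66 (SE 0.26, 3.17-fold, adjusted p = 0.00641).

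EPHA1, a receptor for ephrin-A1 found mainly in epithelia, gave the largest decrease of the 69 genes. It stood at 8.19 and 7.46 in DMSO siLacZ cells, 5.17 with RA, 8.06 and 7.83 in DMSO siRNF20 cells and 5.87 and 6.03 with RA. The RA siLacZ array was the lowest of the 7, below both RA siRNF20 arrays. The differences were -2.66 (SE 0.31, 6.31-fold lower, limma adjusted p = 0.00149) and -1.99 (SE 0.25, 3.98-fold lower, adjusted p = 0.00227). On the left-out array EPHA1 read 5.59, and with all 8 arrays the siLacZ difference was -2.45.

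EPHA4, a receptor for both ephrin classes that guides motor and corticospinal axons, measured 7.31 and 7.04 in DMSO siLacZ cells, 5.99 with RA, 7.26 and 7.13 in DMSO siRNF20 cells and 6.51 and 6.26 with RA. RA arrays were lower in each background, and the difference of group means was below 0 in all 25 rows. It fell by 1.19 in siLacZ cells (SE 0.25, 2.28-fold, limma adjusted p = 0.0331), and the -0.82 (SE 0.21, adjusted p = 0.0660) of siRNF20 cells did not pass. The EPHA4 call was lost without any of the 4 DMSO arrays (-1.32 to -1.05, adjusted p of 0.0610 to 0.172). The 11 others were EPHA2, EPHA3, EPHA5, EPHA6, EPHA7, EPHA8, EPHA10, EPHB1, EPHB2, EPHB4 and EPHB6, from -0.74 (EPHA8) to 0.86 (EPHA7) in siLacZ cells, none called in either background.

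No netrin or netrin receptor was called: of NTN1, NTN3, NTN4, DCC, NEO1, UNC5A, UNC5B, UNC5C and UNC5D, none passed in either background (medians -0.12 and 0.13). DCC, the receptor for attraction to netrin, read 4.98 and 4.99 in DMSO siLacZ cells, 4.86 with RA, 5.12 and 5.09 in DMSO siRNF20 cells and 5.22 and 5.08 with RA. Its values hardly moved, whereas the largest differences were those of the repulsion receptor UNC5C in siLacZ cells and of NEO1, which also binds repulsive guidance molecules, in siRNF20 cells. UNC5C stood at 5.20 and 5.36, then 4.53 with RA, and at 5.20 and 5.51, then 5.46 and 5.29 with RA, with differences of -0.75 (SE 0.32, limma adjusted p = 0.275) and 0.03. NEO1 stood at 8.76 and 8.73, then 9.0 with RA, and at 8.84 and 8.77, then 9.36 and 9.08 with RA, with 0.42 (SE 0.16, adjusted p = 0.223) in siRNF20 cells. NTN4, a laminin-like netrin, gave 0.63 (SE 0.28, adjusted p = 0.299) and 0.36 (SE 0.23, adjusted p = 0.533).

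**Figure D4:**
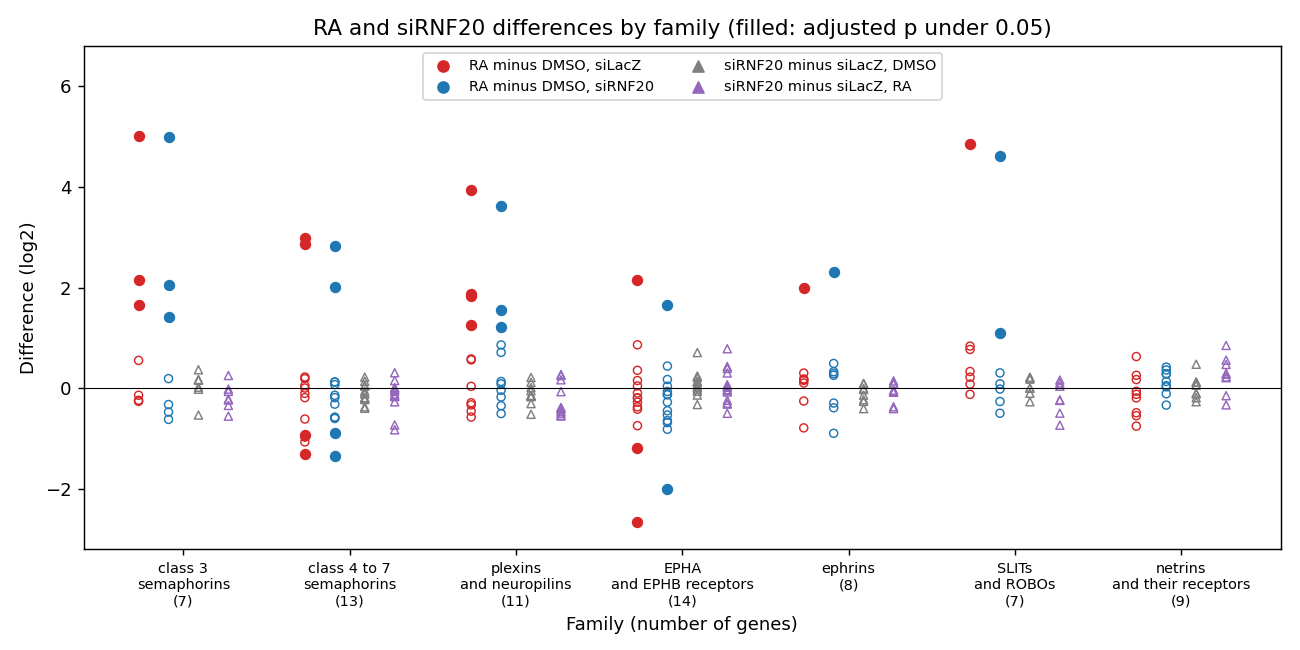
RA and siRNF20 differences (vertical axis, log2) of the 69 guidance genes by family (horizontal axis, with the number of genes); each point is 1 gene, colour and shape mark the comparison, and filled points passed an adjusted p of 0.05. Filled points above 3 are SEMA3C, ROBO2 and PLXNA2, the netrin family has none, and no siRNF20 comparison has a filled point.

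Depletion of RNF20 in DMSO gave no call among the 69 genes (limma), as among all genes (0.0%), and 2 below an unadjusted p of 0.05, EFNB1 (-0.41, SE 0.18) and PLXNA3 (-0.52, SE 0.22), against 2.77% of all genes. The largest differences belonged to EPHA7 (0.71, SE 0.43), SEMA3C (-0.53, SE 0.27) and PLXNA3, and none passed (adjusted p of 1.00 for each). SEMA3C was lower on both DMSO siRNF20 arrays (3.03 and 2.87) than on both DMSO siLacZ arrays (3.29 and 3.69), at values below the array median. With all 8 arrays 0 of the 69 genes fell below an unadjusted p of 0.05, against 0.144% of all genes.

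In RA-treated cells siRNF20 again gave no call among the 69 genes, where 0.0107% of all genes passed, and 5 genes below an unadjusted p of 0.05, against 7.93%: EPHA1, SEMA4F, SEMA4G, SLIT3 and UNC5C. UNC5C differed by 0.85 (SE 0.32, limma adjusted p = 0.564), SEMA4G by -0.83 (SE 0.29, adjusted p = 0.526) and EPHA1 by 0.78 (SE 0.31, adjusted p = 0.586). The differences of the 69 genes ran from -0.83 to 0.85, each against the 1 RA siLacZ array. With all 8 arrays 0 of the 69 were below an unadjusted p of 0.05, against 2.99% of all genes.

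The RA responses of siRNF20 and siLacZ cells did not differ at the adjusted threshold for any of the 69 genes (0.0% of all genes), and 2 genes, SEMA4G and UNC5B, were below an unadjusted p of 0.05, against 3.93%. Of the 13 genes called in both backgrounds 12 had the smaller RA difference in siRNF20 cells; with all 8 arrays this turned, and 11 of the 13 had the larger one there. Over the 69 genes the median difference between responses was -0.09 with 7 arrays, with 27 above 0, and 0.36 with 8, with 46 above 0. Over all genes it moved the same way. It was 0.006 with 7 arrays, with 9478 of 18732 above 0, and 0.46 with 8, with 12624 of 18747 above 0. Both responses enter this comparison through separate arrays, but the siLacZ side rests on 1 RA array for every gene, so that the 12 values share it. The differences between responses ran from -0.87 (SEMA4G) to 0.83 (UNC5B), and the 95% interval of a single gene could reach beyond them, as that of ROBO2 does (-1.27 to 0.80). With all 8 arrays 0 of the 69 were below an unadjusted p of 0.05, against 0.603% of all genes.

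Among 78 other axon guidance genes measured, 9 rose and 1 fell in siLacZ cells (12.8%) and 9 rose and 2 fell in siRNF20 cells (14.1%), against 3.91% and 3.92% of all genes. The calls lay mostly among the 28 other cues, adhesion molecules and receptors (7 up; 8 up and 1 down) and less among the 50 cytoplasmic effectors (2 up and 1 down; 1 up and 1 down); this contrast was not tested. CDON, a receptor of the immunoglobulin family and hedgehog co-receptor, measured 6.54 and 6.43 in DMSO siLacZ cells, 9.14 with RA, 6.47 and 6.69 in DMSO siRNF20 cells and 8.88 and 9.13 with RA. CDON rose by 2.65 (SE 0.23, limma adjusted p = 0.000325) and 2.43 (SE 0.19, adjusted p = 0.000141) with no overlap of groups. Its relative BOC rose by 1.54 and 1.52, the latter lost without the DMSO siRNF20 array GF120 (1.39, adjusted p = 0.0765).

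The adhesion molecules NRCAM (2.21 and 1.48), CNTN1 (2.07 and 1.78) and NCAM1 (2.04 and 1.66), which form or modify guidance receptor complexes on axons, rose in both backgrounds. In siLacZ cells the CNTN1 call was lost without the DMSO siLacZ array GF117 (2.03, adjusted p = 0.0509). RGMB, a repulsive guidance molecule that binds NEO1 and is a co-receptor for BMPs, rose by 1.40 and 2.23. FLRT3, a ligand of UNC5 receptors, rose by 1.93 and 1.26, but its siLacZ call was lost without the DMSO siLacZ array GF117 or GF120 (1.79 and 2.07, adjusted p = 0.0910 and 0.0513), and with all 8 arrays it gave -0.98.

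Of the effectors, DPYSL5, a collapsin response mediator protein, rose by 1.56 and 1.85, and the related DPYSL3 fell by 1.11 and 0.96. TIAM2, an exchange factor for RAC1, rose by 1.93 in siLacZ cells. In siRNF20 cells TIAM2 went from 5.95 and 6.07 to 6.78 and 6.90 and was not called. L1CAM, an adhesion molecule that associates with NRP1, fell by 1.43 in siRNF20 cells (limma adjusted p = 0.0238). In siLacZ cells L1CAM went from 7.09 and 6.22 to 5.60 and was not called. The netrin antagonist DRAXIN rose by 0.76 in siRNF20 cells, near the threshold (limma adjusted p = 0.0437). No gene of this list was called in the siRNF20 comparisons or in the difference between responses, where 3, 9 and 6 of the 78 were below an unadjusted p of 0.05, against 2.77%, 7.93% and 3.93% of all genes.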

How the data were processed

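RNA was extracted from all samples and measured on Affymetrix Human Exon 1.0 ST arrays. The authors deposited linear intensities, 1 per array row and array; their background correction and normalization are not given in the sources used here. Rows were named through the platform's gene annotation (354600 of 1384231 rows carried 1 symbol), and values were taken as log2 without further normalization. Rows no brighter than the median row (mean over the arrays) were dropped as dim. limma (version 3.58.1, R 4.3.3, data.table version 1.17.8) fitted the 4 group means to 7 arrays with an intensity trend; p-values are two-sided, with Benjamini-Hochberg adjustment over 18732 genes, and genes below 0.05 were called. With 2 arrays against 2 the smallest exact permutation p is 0.333, so single genes were tested in this model alone; arrays have no read depth, and their number limits the precision. Named were all called members, up to 14 per contrast with the largest difference, with no call the 3 largest; the 2 largest per family and RA comparison; and up to 6 called pathway genes. Others, such as SEMA3A, ROBO1, DCC, UNC5B and the remaining pathway calls, were picked with their values known. The members, lists and the left-out array were chosen with earlier results of these data known. Promoters come from RefSeq (GRCh38.p14); figures used Python 3.11.15 and matplotlib 3.10.9.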

Additional observations from a re-analysis of the deposited data

Results flagged for a closer look

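The GF117 RA siLacZ array, which entered no comparison above, held higher values than both DMSO siLacZ arrays for 6 of the 12 guidance genes that rose in siLacZ cells: EPHB3 (6.33), PLXNA2 (7.12), ROBO2 (4.90), SEMA3C (3.90), SEMA3E (5.32) and SEMA4G (5.46). Over all genes 28.5% lay above both DMSO siLacZ arrays on that array, and 21 of the 69 guidance genes did. These values lay below those of the GF120 RA siLacZ array for each of the 6 genes. The share over all genes was not matched for signal in DMSO, where SEMA3C, ROBO2 and SEMA3E were dim. The left-out array correlated at 0.135 to 0.239 with the others, and SEMA3C lay below its median of 4.20. The 6 genes are therefore a description and not a replication of the rises.

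UNC5B, a netrin receptor, had RA arrays on opposite sides of the DMSO arrays in the 2 backgrounds, as did 5.82% of all genes and 1 of the 69 guidance genes. It stood at 7.21 and 6.91 in DMSO siLacZ cells and 6.52 with RA, and at 6.81 and 6.78 in DMSO siRNF20 cells and 7.24 and 6.90 with RA. Neither RA difference passed (-0.55 and 0.28, limma adjusted p = 0.346 and 0.641). The responses differed by 0.83 (SE 0.33, 95% interval 0.07 to 1.58), which did not pass over all genes (limma adjusted p = 0.999). On the left-out array UNC5B read 7.13.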

How the results depend on the processing

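The 13 alternatives run on the 7 arrays were quantile scaling, an offset, the row filter, the gene summary, the trend, the replicate block and single arrays left out. Each array but the 1 RA siLacZ array was left out in turn, so every siLacZ call rests on that array. Under all 13, 9 genes were called in both backgrounds: SEMA3C, ROBO2, PLXNA2, SEMA6D, SEMA4G, EPHA1, EPHB3, EFNB2 and NRP2. Each named guidance result was compared with the main fit once per alternative. Of these comparisons, 546 kept direction and call status, which includes results not called in either fit. The call was lost in 57 and gained in 1, and the direction reversed in 5. Besides the cases given above, the siLacZ calls of EPHA4 and PLXNB2 were lost with no row filter and without the trend, that of SEMA6A without the trend and that of SEMA4A with the stricter filter. In siRNF20 cells SEMA4A was lost with the stricter filter, the mean of rows and no trend, and SLIT1 with quantile scaling, either filter change and the mean of rows. Leaving out 1 array gave 11 to 17 called guidance genes in siLacZ cells and 10 to 13 in siRNF20 cells, and 6 to 9 pathway genes in siRNF20 cells, while the count over all genes ran from 317 to 970 and from 324 to 589. With all 8 arrays each of these counts, pathway genes included, was 0. Without the trend 7 pathway genes were called in siRNF20 cells. The GF numbers are not stated to be a pairing; deviations of arrays with one number correlated at 0.297 to 0.364 among 3 groups. With GF as a replicate block 18 guidance genes were called in siLacZ cells and 23 in siRNF20 cells, 18 pathway genes in siLacZ cells, 2 in the siRNF20 comparison in RA, and no guidance gene in the siRNF20 comparisons; over all genes 9.57%, 10.5% and, for siRNF20 in RA, 1.24% were called. The block added EPHA7 and SEMA7A in siLacZ cells and EFNA3 (-0.90, adjusted p = 0.0109), EPHA4, EPHB4, PLXNA3, PLXNB2, SEMA3A, SEMA6A and SEMA6B in siRNF20 cells, and lost none.

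Reversed with all 8 arrays were PLXNB2 (-0.87), UNC5C (0.64) and FLRT3 (-0.98) for RA in siLacZ cells, UNC5C (-0.54) and SEMA4G (0.30) for siRNF20 in RA, and UNC5C (-0.61) and SEMA4G (0.27) for the difference between responses. With a stricter row filter UNC5C (0.044) and NTN4 (-0.050) reversed for RA in siLacZ cells and UNC5C (-0.022) for the difference. Without the filter UNC5C reversed in the siRNF20 comparison in RA (-0.33) and in the difference (-0.0078). The cause was not tested. SEMA3E had no rows left under the stricter filter. Dim signal in DMSO limits the size of the SEMA3C, ROBO2 and SEMA3E folds.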
